A study of Mus musculus with 58 samples.

Results

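The 10 genes described here encode glucose transporters (Slc2a1, Slc2a3), isoenzymes of glycolysis (Hk1, Hk2, Pfkl, Pfkp, Pkm, Ldha, Ldhb) and a kinase that limits the entry of pyruvate into the citric acid cycle (Pdk1). They were chosen by name, and each of the 10 had a row among the 23152 gene symbols of the count table. They were measured in 58 single cells from the bone marrow of wild-type C57BL/6 mice, sorted by surface markers. The 34 long-term haematopoietic stem cells (LT-HSC) were negative for lineage markers, Flt3 and CD34 and positive for Kit and Sca-1. The 24 common myeloid progenitors (CMP) were negative for lineage markers, Sca-1 and CD16/32 and positive for Kit and CD34. No treatment, age or animal was named for any cell, and both groups shared the strain and genotype. A passage number was given for all cells, with no word on what had been passaged. Since no cell was tied to an animal, each gate counted as 1 sample, no test was made, and the cells were described rather than treated as replicates.

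Glycolysis turns glucose into pyruvate in the cytosol. Hexokinases trap glucose in the cell, phosphofructokinases catalyse the committed step, pyruvate kinase makes the pyruvate, and lactate dehydrogenase interconverts pyruvate and lactate. Pyruvate dehydrogenase kinases phosphorylate and inhibit the complex that feeds pyruvate into the citric acid cycle. Several steps have paralogous isoenzymes that differ in kinetics and in tissue distribution. The LDHA subunit is known from muscle and favours lactate formation, and the LDHB subunit is known from heart and favours lactate oxidation. Quiescent blood stem cells are known for a metabolism that leans on glycolysis, and hypoxia-inducible factor activates many genes of the pathway, Ldha among them.

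Of the 10 genes, Ldhb differed most between the gates and its partner Ldha least, so the 250 bases upstream of a start of each are shown. They come from RefSeq on GRCm38.p6, the assembly of the mm10 build, and are printed 5′ to 3′ along the gene's strand. Capitals mark ACGTG or GCGTG on either strand, the core of the hypoxia response element, with overlapping matches merged. The Ldha stretch lies at chr7:46845554-46845803 on the plus strand, and the Ldhb stretch at chr6:142507958-142508207 on the minus strand.
Ldha: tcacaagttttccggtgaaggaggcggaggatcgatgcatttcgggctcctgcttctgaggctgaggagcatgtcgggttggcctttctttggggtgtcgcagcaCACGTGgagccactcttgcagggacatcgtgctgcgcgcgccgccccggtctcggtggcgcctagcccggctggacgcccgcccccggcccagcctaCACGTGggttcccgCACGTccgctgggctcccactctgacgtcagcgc
Ldhb: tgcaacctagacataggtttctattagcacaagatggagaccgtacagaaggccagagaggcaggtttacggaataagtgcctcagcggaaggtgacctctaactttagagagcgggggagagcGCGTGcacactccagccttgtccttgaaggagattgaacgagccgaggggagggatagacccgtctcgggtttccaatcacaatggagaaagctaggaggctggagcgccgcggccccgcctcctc
The Ldha stretch held 3 places with these letters, 2 of them within the palindrome CACGTG, and the Ldhb stretch held 1 place. A second annotated Ldha start, whose upstream stretch lies at chr7:46846832-46847081, had 1 place. Of 32851 stretches of the same length, 38.6% held at least 1 place, 13.5% at least 2 and 4.65% at least 3, and CACGTG was in 6.02%. An upstream sequence was found for 9 of the 10 genes, all but Slc2a3. Among them Pfkp also had 3 places, Hk1, Hk2 and Slc2a1 up to 2, and Pfkl, Pdk1 and Pkm up to 1. These matches describe letters only, and no measurement here bears on binding.

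The LT-HSC held a median of 236774 counts a cell (range 45022 to 860553) and the CMP a median of 290977 (range 88329 to 706184), or 9931131 and 7062737 counts over all cells. Levels are given as CPM, a gene's counts scaled to a common total, for a cell or for a gate's cells summed (pooled). Intervals are 95% intervals for counting error only, and amplification can make the true error larger, since the sources used here do not state whether the counts are molecules or reads. The blocks and the split of cells by Xist below are given by no label. Xist, a long non-coding RNA of X inactivation, had no count in any LT-HSC or in CMP 1 and 2 and was counted in the other 22 CMP, so that gate and Xist cannot be told apart outside those 2 cells. LT-HSC 1 to 16 and LT-HSC 17 to 34 differed in many genes. Values for both blocks are given for some genes only, so their absence does not mean that the blocks agreed. The 8 LT-HSC markers summed to a median of 7.15 in 10000 counts in the LT-HSC (range 0.68 to 19.3) and 0.68 in the CMP (range 0 to 4.99). The 8 CMP markers summed to 3.02 (range 0.12 to 25.7) and 41.9 (range 3.26 to 131). Not every marker went with its list. Cd34 of the CMP list was at 254 CPM in the LT-HSC, which were sorted as CD34 negative, and 206 in the CMP. It reached 10 counts in 22 of 34 LT-HSC and 20 of 24 CMP. Ctnnal1 of the LT-HSC list was at 10.6 CPM in the LT-HSC and 14.6 in the CMP. All 9 markers of mature neutrophils had counts in both gates, at 2.19 to 6.06 in 10000 in the LT-HSC (median 3.38) and 0.03 to 59.4 in the CMP (median 5.30). Of 7 genes in each of the other marker lists, 1 had a count in the LT-HSC and 4 in the CMP for B cells, 1 and 3 for T or NK cells, 2 and 5 for macrophages, and 4 and 4 for stroma or endothelium. Summed, the B cell list reached at most 5.0 in 10000 counts of an LT-HSC and 2.53 of a CMP, the T or NK cell list 16.9 and 12.1, the macrophage list 0.35 and 1.28, and the stromal or endothelial list 6.65 and 3.74. Nkg7 was at 349 CPM in the LT-HSC and 427 in the CMP, Cd79b at 80.8 and 47.1, Emcn at 42.2 and 12.2, Pecam1 at 22.1 and 45.3, Cd68 at 1.81 and 23.4 and Klrd1 at 0 and 13.9. Col1a2 was at 13.4 and 5.95 CPM, with counts in 1 cell of each gate. Ms4a1 and Pax5 of B cells, Cd3e, Cd3d and Cd3g of T cells, Adgre1 and Mrc1 of macrophages and Col1a1, Cxcl12 and Cdh5 of stroma and endothelium had no count in any cell. Cd79a, Vpreb3 and Ebf1 of the B cell list were counted in 6, 4 and 2 CMP, at 0.99, 0.85 and 0.28 CPM, and in 0 LT-HSC. The part that RNA of neutrophils or of these other cells takes in the values below was not tested.

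Ldhb and Pkm were higher in the LT-HSC than in the CMP under every alternative tried, by 9.35-fold and 2.43-fold in pooled CPM, while Hk1 was 1.68-fold higher in the CMP. Ldha was at nearly the same level in both gates. Slc2a3 and Pdk1 were 3.30-fold and 2.56-fold higher in the LT-HSC pool, but most of their LT-HSC counts lay in a few cells of LT-HSC 17 to 34. At a 2-fold threshold, 4 of the 10 genes were higher in the LT-HSC (Ldhb, Slc2a3, Pdk1 and Pkm) and 0 were higher in the CMP. For comparison, among all 10937 genes with at least 20 counts over both gates, LT-HSC passed this threshold in 22.7% and CMP in 28.1%. The median log2 ratio of LT-HSC to CMP was 0.73 for the 10 genes and -0.13 for those 10937. Summed over the 10 genes, a median LT-HSC held 2108 CPM (range 879 to 4070) and a median CMP 1502 (range 877 to 2934), so the ranges overlapped. Ldha and Pkm together made up 77.5% of the 10 genes' counts in the LT-HSC and 78.0% in the CMP, before any correction for length.

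**Figure D1:**
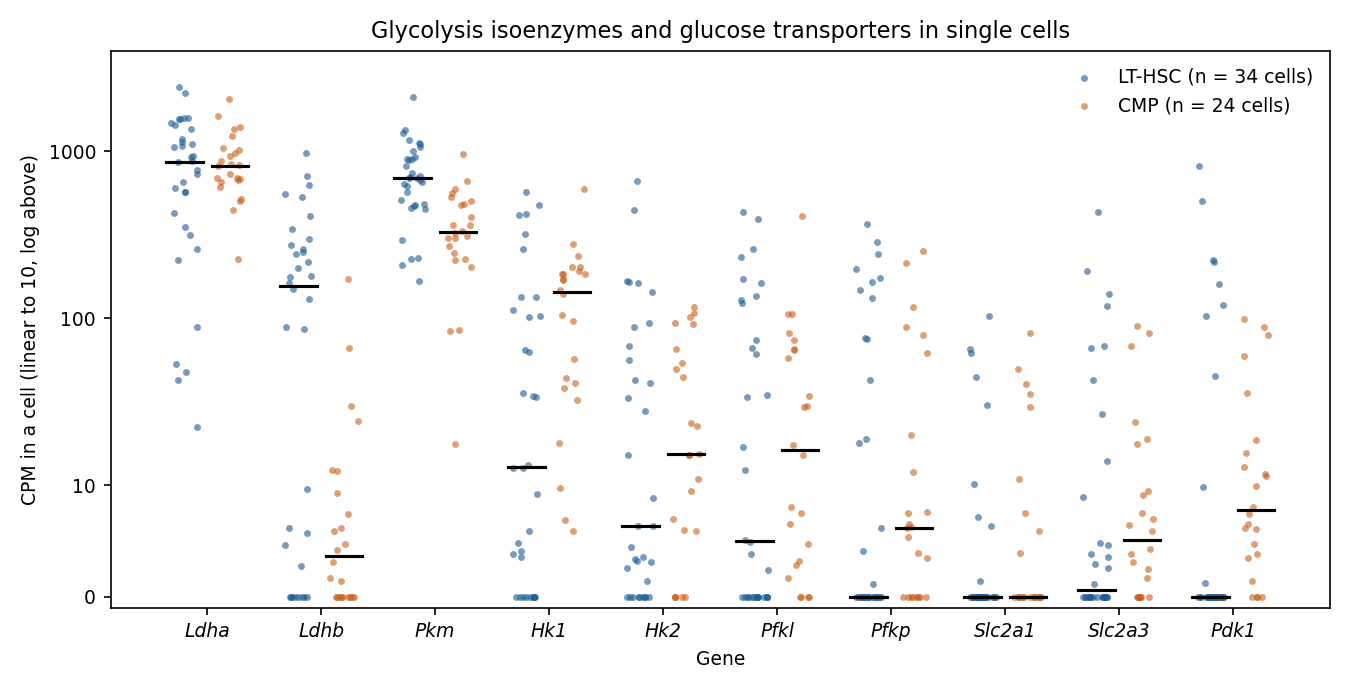
CPM of each of the 10 genes in each of 34 LT-HSC (blue) and 24 CMP (orange), on an axis that is linear to 10 and logarithmic above, with black bars at the medians over cells. Ldha and Pkm had a count in every cell, the Ldhb median was 157 CPM in the LT-HSC and 3.66 in the CMP, and most other genes split into cells at or near 0 and cells well above that.

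The glucose transporters come first in the pathway. Slc2a1 reached 10 counts in 3 LT-HSC and 4 CMP and Slc2a3 in 5 and 2, the lowest numbers of cells, summed over both gates, among the 10 genes. Slc2a1 (chr4:119108711-119137983, plus strand) encodes GLUT1, the transporter of most cells with a steady glucose demand. Slc2a1 had a count in 9 of 34 LT-HSC, at 0 to 104 CPM a cell (median 0), and in 9 of 24 CMP, at 0 to 82.2 CPM (median 0). Its pooled level was 7.45 CPM in the LT-HSC and 13.7 CPM in the CMP, for a log2 ratio of -0.88 (interval -1.34 to -0.43) that rested on few cells. LT-HSC 12 carried 39.2% of its gate's counts and CMP 3 carried 40.2%; leaving out the former gave -1.55 and the latter -0.24. With only LT-HSC 1 to 16 pooled, the ratio turned to 0.50, and with LT-HSC 17 to 34 it was -3.40.

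Slc2a3 (chr6:122727809-122801640, minus strand) encodes GLUT3, a transporter of high affinity for glucose. It ranged from 0 to 435 CPM in the LT-HSC (median 0.58) and from 0 to 90.6 CPM in the CMP (median 5.09), so the median cell was lower in the LT-HSC although the pool was higher, at 36.1 against 10.9 CPM. The log2 ratio of the pools was 1.72 (interval 1.37 to 2.10). The 3 LT-HSC with the most counts (LT-HSC 30, 33 and 24) held 83.3% of that gate's Slc2a3 counts. Leaving out LT-HSC 30 gave 1.05, and with LT-HSC 1 to 16 only it turned to -0.29, as against 2.20 with LT-HSC 17 to 34. With each cell thinned at random to 97978 counts, the common depth used below, and shallower cells left out, 9 of 30 LT-HSC and 11 of 22 CMP had a count.

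Within single cells, both transporters had a count in 4 LT-HSC and 6 CMP. Slc2a1 alone had a count in 5 LT-HSC and 3 CMP, and Slc2a3 alone in 13 LT-HSC and 11 CMP. Whether 1 transporter excludes the other was not tested. Of 8 LT-HSC with at least 10 counts of the pair, 3 (LT-HSC 8, 9 and 12) held 92.9% to 100% Slc2a1 and 5 (LT-HSC 3, 24, 27, 30 and 33) held 0% Slc2a1, with no cell between. The 3 Slc2a1 cells all belonged to LT-HSC 1 to 16, and 4 of the 5 Slc2a3 cells to LT-HSC 17 to 34. In CMP 5 cells reached 10 counts of the pair, with Slc2a1 shares of 26.7% to 100% and a median of 65.0%. CMP 7 held 13 Slc2a1 and 22 Slc2a3 counts and was the only cell of either gate with at least 10 of each. Pooled, Slc2a1 made up 17.1% of the pair in the LT-HSC (interval 13.7% to 21%) and 55.7% in the CMP (48.0% to 63.3%), or 20.02% and 60.5% per transcript length. This difference of -38.7 percentage points (interval -46.5 to -30.3) turned to 13 with LT-HSC 1 to 16 only, where Slc2a1 made up 68.8%. In LT-HSC 17 to 34 it made up 2.37%.

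Of the hexokinases, Hk1 was higher in the CMP, and Hk2 had no direction that held when 1 cell was left out. Hk1 (chr10:62268855-62379908, minus strand) encodes the constitutive hexokinase, which binds the outer mitochondrial membrane. It ranged from 0 to 571 CPM in the LT-HSC (median 13) and from 5.94 to 591 CPM in the CMP (median 144). All 24 CMP had an Hk1 count and 18 had at least 10, against 25 and 12 of the 34 LT-HSC, and the ranges overlapped. The pooled level was 80.1 CPM in the LT-HSC (interval 74.6 to 85.8) and 134 CPM in the CMP (126 to 143), for a log2 ratio of -0.75 (interval -0.88 to -0.61). CMP was the higher gate in all 12 alternatives, from -1.06 without LT-HSC 24 to -0.50 by the mean of the cells' CPM. At the common depth, 17 of 30 LT-HSC and 21 of 22 CMP had a count.

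Hk2 (chr6:82725025-82774454, minus strand) encodes the inducible hexokinase of muscle and of many proliferating cells. It ranged from 0 to 661 CPM in the LT-HSC (median 6.34) and from 0 to 117 CPM in the CMP (median 15.3). The pools stood at 62.9 and 43.0 CPM, for a log2 ratio of 0.55 (interval 0.35 to 0.75). Of 625 LT-HSC counts, 214 came from LT-HSC 10 alone, and leaving it out gave -0.0095, so that cell decided the direction. The first LT-HSC block stood at 116 CPM and the second at 35.1 CPM. At least 10 counts were reached in 11 of 34 LT-HSC and 7 of 24 CMP.

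As a share of Hk1 and Hk2 counts, Hk1 made up 56.0% in the LT-HSC (interval 53.4% to 58.6%) and 75.7% in the CMP (73.2% to 78.1%), a difference of -19.7 percentage points (interval -23.2 to -16.2). Per transcript length the shares were 62.1% and 80.1%. Among 19 LT-HSC with at least 10 counts of the pair, 7 held over 90% Hk1, 5 held under 10% and 7 lay between. Among 21 such CMP, 6 held over 90%, 1 held under 10% and 14 lay between. Hk2 led in 7 LT-HSC and 3 CMP. The pooled share in the LT-HSC was 43.5% in cells 1 to 16 and 68.2% in cells 17 to 34, both below the CMP, and without LT-HSC 10 the difference was -9.88 percentage points.

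Phosphofructokinase makes fructose 1,6-bisphosphate from fructose 6-phosphate. Pfkl (chr10:77986947-78010083, minus strand) encodes its liver type, and Pfkp (chr13:6579768-6648777, minus strand) its platelet type. Pfkl ranged from 0 to 432 CPM in the LT-HSC (median 5.0) and from 0 to 410 CPM in the CMP (median 16.3), with pooled levels of 75.8 and 40.1 CPM. Its log2 ratio of 0.92 (interval 0.72 to 1.12) kept its direction in all 12 alternatives and was 0.54 without LT-HSC 18. Pfkp ranged from 0 to 367 CPM in the LT-HSC (median 0) and from 0 to 252 CPM in the CMP (median 6.20), with pooled levels of 58.1 and 45.3 CPM. Its log2 ratio of 0.36 (interval 0.16 to 0.56) was 1.08 with LT-HSC 1 to 16 and -0.24 with LT-HSC 17 to 34. The 3′ end of Pfkp shares sequence with the gene Pitrm1, so its counts are less certain. For both genes the median LT-HSC lay below the median CMP while the LT-HSC pool lay above, and the ranges overlapped.

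Among cells with at least 10 counts of the phosphofructokinase pair, most held over 90% or under 10% Pfkl in both gates. Of 18 LT-HSC with at least 10 counts of the pair, 8 held over 90% Pfkl, 7 under 10% and 3 lay between. Of 13 CMP, 6 held over 90% Pfkl, 3 under 10% and 4 lay between. At least 10 counts of each were held by 4 LT-HSC and 2 CMP. The pooled Pfkl share was 56.6% in the LT-HSC (interval 53.9% to 59.3%) and 46.9% in the CMP (42.9% to 51.0%), but the mean over those cells was lower in the LT-HSC, by -8.21 percentage points. Without LT-HSC 18 the pooled difference of 9.68 percentage points was 0.99, so no direction held.

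Pkm (chr9:59656368-59679375, plus strand) encodes both muscle-type pyruvate kinases, PKM1 and PKM2, by a choice between exons that counts per gene cannot resolve. All 34 LT-HSC and all 24 CMP had Pkm counts. The level ranged from 168 to 2102 CPM in the LT-HSC (median 689) and from 17.6 to 958 CPM in the CMP (median 328). The ranges overlapped. Pooled, LT-HSC stood at 826 CPM (interval 808 to 844) and CMP at 339.7 CPM (326 to 354), for a log2 ratio of 1.28 (interval 1.22 to 1.35). Each of the 12 alternatives put LT-HSC higher, from 0.94 with LT-HSC 1 to 16 (653 CPM, as against 916 CPM in LT-HSC 17 to 34) to 1.68 with the cells without an Xist count. Leaving out any single cell moved the fold by at most 1.05 times.

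Ldha (chr7:46841475-46855627, plus strand) had a count in every cell. It ranged from 22.2 to 2429 CPM in the LT-HSC (median 864) and from 226 to 2067 CPM in the CMP (median 820). The CMP thus lay within the range of the LT-HSC, and the cells under 100 CPM were all LT-HSC. The pooled levels of 962 and 809 CPM gave a log2 ratio of 0.25 (interval 0.20 to 0.30), which was -0.013 by the mean of the cells' CPM and -0.040 at the common depth. A difference in Ldha between the gates was therefore not shown in direction, whereas among cells that lacked Xist counts LT-HSC was higher, at 1.01.

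Ldhb (chr6:142490249-142507957, minus strand) ranged from 0 to 977 CPM in the LT-HSC (median 157) and from 0 to 171 CPM in the CMP (median 3.66). At least 10 Ldhb counts were held by 21 of 34 LT-HSC (61.8%, exact Clopper-Pearson interval 43.6% to 77.8%) and by 2 of 24 CMP (8.33%, interval 1.03% to 27%), CMP 12 and CMP 23. A further 13 CMP held 1 to 9 counts, 41 in all, and 9 CMP held 0. The ranges overlapped, since 8 LT-HSC held 0 and 5 held 1 to 9 counts, while CMP 12 stood at 171 CPM. Pooled, Ldhb stood at 142 CPM in the LT-HSC (interval 135 to 149.9) and 15.1 CPM in the CMP (12.4 to 18.3), for a log2 ratio of 3.23 (interval 2.95 to 3.53). Of 107 CMP counts, 45 came from CMP 12, and leaving it out gave 3.95. LT-HSC was higher in all 12 alternatives, from 2.79 with LT-HSC 17 to 34 to 6.20 with the cells without an Xist count, where CMP 1 and 2 held 1 Ldhb count each. The first LT-HSC block stood at 214 CPM and the second at 105 CPM, with at least 10 counts in 12 of 16 and 9 of 18 cells. The last bases of Ldhb match the locus Gm5514, which has no row in the table.

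Within single cells the lactate dehydrogenase pair was mixed in the LT-HSC and nearly pure in the CMP. All 58 cells had at least 10 counts of the pair. The Ldha share ranged from 2.22% to 100% in the LT-HSC (median 89.1%) and from 81.0% to 100% in the CMP (median 99.6%). In LT-HSC 17 of 34 cells held over 90% Ldha, 15 lay between 10% and 90% and 2 held under 10%, and in CMP 22 of 24 held over 90%. At least 10 counts of each gene were held by 18 of 34 LT-HSC and 2 of 24 CMP, and at the common depth by 13 of 30 and 1 of 22. The pooled Ldha share was 87.1% in the LT-HSC (interval 86.5% to 87.7%) and 98.2% in the CMP (97.8% to 98.5%), a difference of -11.1 percentage points (interval -11.8 to -10.3). Per transcript length the shares were 82.9% and 97.5%. LT-HSC was lower in both blocks, at 81.0% in cells 1 to 16 and 90.4% in cells 17 to 34.

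Ldhb held more counts than Ldha in 6 LT-HSC and in 0 CMP, and per transcript length in 7 and 0. LT-HSC 25 held 1 Ldha and 44 Ldhb counts, LT-HSC 20 held 9 and 86, and LT-HSC 4 held 25 and 155. LT-HSC 9 held 10 and 57, LT-HSC 19 held 3 and 14, and LT-HSC 22 held 69 and 195. These 6 cells came from both blocks, 2 from the first and 4 from the second, and LT-HSC 22 was the only 1 of them with more than 100 CPM of Ldha. Over cells, Ldha and Ldhb had a Spearman rho of -0.28 in the LT-HSC (n = 34) and -0.37 in the CMP (n = 24), as a description, since values of a cell share its total.

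**Figure D2:**
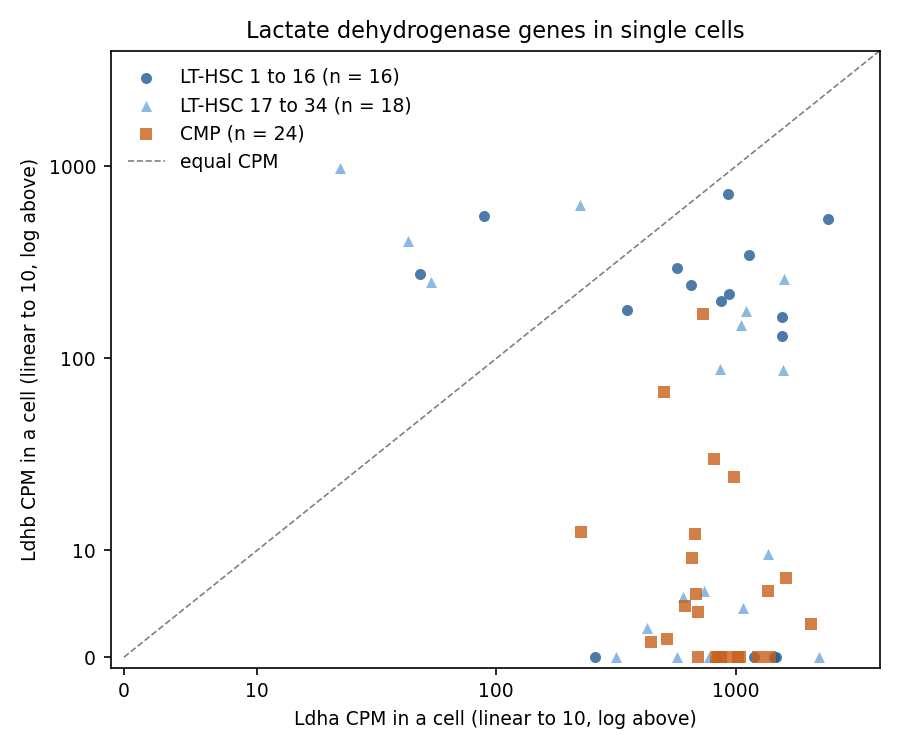
Ldha CPM (horizontal) against Ldhb CPM (vertical) in each of 58 cells, both axes linear to 10 and logarithmic above, with the dashed line at equal CPM. The 6 cells above the line are LT-HSC, and 22 of 24 CMP hold under 10 Ldhb counts while all have at least 226 CPM of Ldha.

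**Figure D3:**
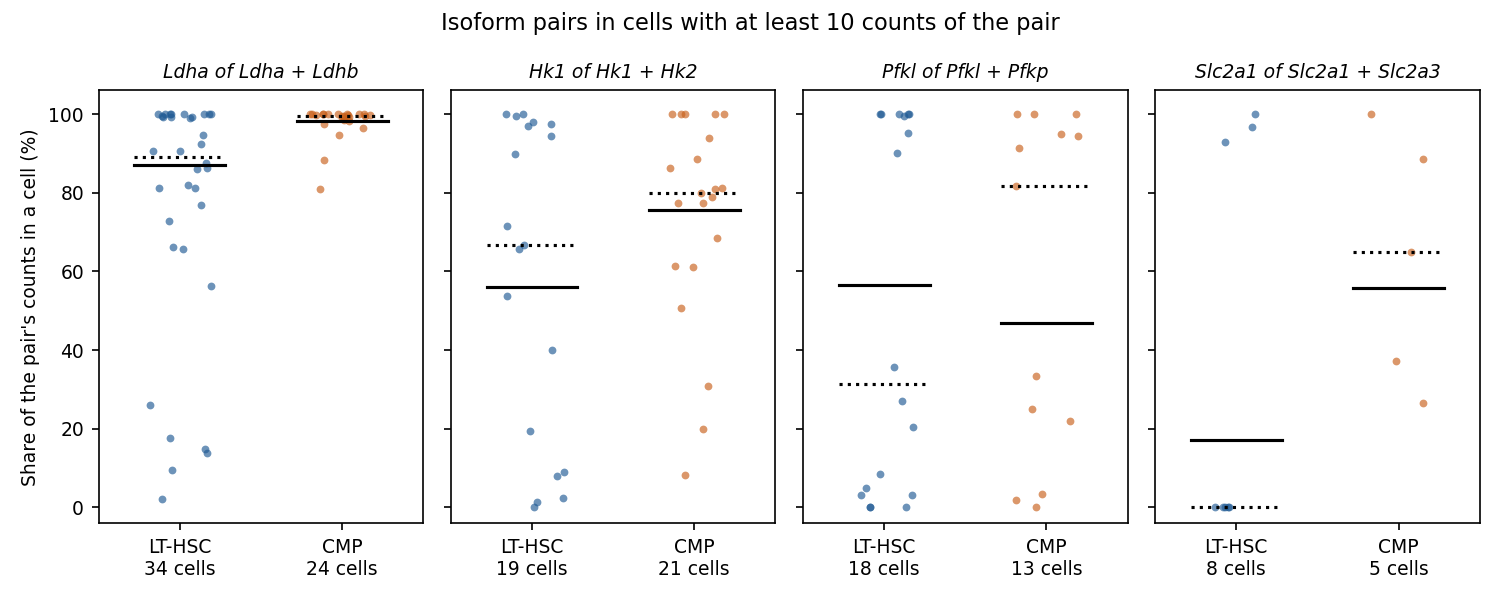
Share of the first gene in the counts of each isoform pair, 1 point per cell with at least 10 counts of the pair, with solid lines at the pooled share and dotted lines at the median over cells. The Ldha panel shows 34 LT-HSC spread from 2.22% to 100% and 24 CMP above 80%, and in the Slc2a1 panel no LT-HSC lies between 0% and 92.9%.

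Pdk1 (chr2:71873224-71903858, plus strand) encodes the pyruvate dehydrogenase kinase known as a hypoxia target. It ranged from 0 to 814 CPM in the LT-HSC (median 0) and from 0 to 99.4 CPM in the CMP (median 7.76). In LT-HSC the gene was absent from the counts of 24 cells and reached at least 10 counts in 8, whereas 20 of 24 CMP had a count but only 4 reached 10. The direction of a share of cells thus turned with the minimum: -53.9 percentage points at 1 count and 6.86 at 10 counts. At the common depth, 9 of 30 LT-HSC and 12 of 22 CMP had a count, and 7 and 1 reached 10. The pools stood at 56.0 and 21.8 CPM, for a log2 ratio of 1.36 (interval 1.10 to 1.63). Leaving out LT-HSC 34 gave 0.98. The ratio was 1.81 with LT-HSC 17 to 34 and -0.35 with LT-HSC 1 to 16, so the LT-HSC excess was not seen in the first block.

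A count of 1 to 9 was more frequent in the CMP across the 10 genes. Of 240 values in the CMP, 37.5% were 1 to 9 counts and 40.8% at least 10, and of 340 values in LT-HSC 20.3% and 43.2%. A median LT-HSC held 6 of the 10 genes (range 4 to 9) and a median CMP 8 (range 4 to 10), and with at least 10 counts both medians were 4. At the common depth the medians for 1 count were 6 and 7.

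The share of the 10 genes among all paralogues differed from family to family. In LT-HSC, Pkm held 8199 of 8203 pyruvate kinase counts against Pklr, the liver and red cell form. Ldhc, the testis form, had 0 counts in the LT-HSC and 4 in the CMP. Hk3 took 18% of hexokinase counts in the CMP (interval 16.1% to 20.03%) and 2.41% in the LT-HSC, and it was 10.9-fold higher in the CMP, at 38.9 against 3.52 CPM. CMP 2 held 38.9% of its CMP counts, and the log2 ratio was -3.45 with and -2.86 without it. Hk3 was counted at 10 or more in 6 of 24 CMP and 2 of 34 LT-HSC. Hkdc1 was listed at 0. Pfkm, the muscle phosphofructokinase, took 20.1% of the family's counts in the LT-HSC and 27.5% in the CMP, at 33.7 and 32.4 CPM.

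Pdk1 was not the leading kinase of its family in either pool. Pdk3 held 65.8% of the pyruvate dehydrogenase kinase counts in the LT-HSC and 68.9% in the CMP, or 81.7% and 80.2% per transcript length, and led in 15 of 22 LT-HSC and 10 of 15 CMP with at least 10 counts of the family. The blocks differed: Pdk3 held 87.4% in LT-HSC 1 to 16, where it led in 9 of 11 cells, and 55.6% in LT-HSC 17 to 34, where it led in 6 of 11 and Pdk1, at 43.0%, in the other 5. The pooled level of Pdk3 was 113 CPM in the LT-HSC and 65.3 CPM in the CMP. Pdk4, known from fasting and from quiescent cells, was listed at 0 in all cells. Among 10 glucose transporters, Slc2a3 held 54.0% of the counts in the LT-HSC and Slc2a8, an intracellular transporter, 27.8%, or 42.8% and 41.4% per length. The order turned between the blocks. In LT-HSC 1 to 16, Slc2a8 held 51.2%, Slc2a1 31.9% and Slc2a3 14.5%, and in LT-HSC 17 to 34 Slc2a3 held 71.8% and Slc2a8 17.2%. In CMP Slc2a1 led with 35.8%, or 34.3% per length, and this lead rested on CMP 3, which held 39 of the 97 Slc2a1 counts and 0 of the 77 Slc2a3 counts. Without that cell, left out here after its values were seen, Slc2a1 held 25.3% and Slc2a3 33.6%. The family total was low, and 12 LT-HSC and 8 CMP reached 10 counts of it.

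**Figure D4:**
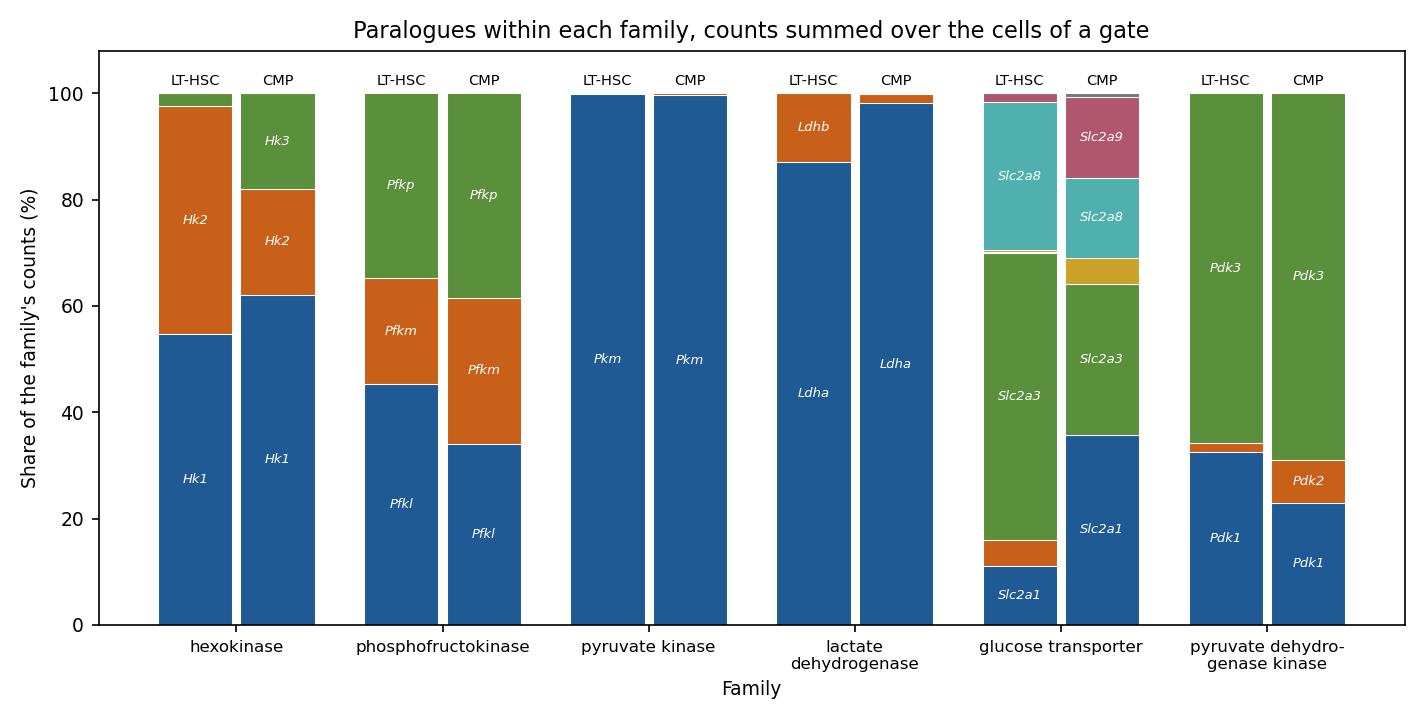
Share of each paralogue in the counts of its family (percent), summed over 34 LT-HSC (left bar) and 24 CMP (right bar). Pkm and Ldha fill most of their bars, Hk3 takes 18% of the CMP hexokinase bar, and Pdk3 takes the larger part of both kinase bars.

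Beyond the 10 genes, 51 others of glycolysis, its transporters and regulators and pyruvate entry were listed, of which 36 had at least 20 counts over both gates and 8 had none. The 2-fold threshold was passed towards LT-HSC by 8 of the 36 (22.2%, beside 22.7% of all genes) and towards CMP by 7 (19.4%, beside 28.1%), with 21 in between. Their median log2 ratio was 0.15. Among the 12 other enzymes 3 were higher in the LT-HSC (Aldoc, Eno2 and Ldhd) and 1 in the CMP (Hk3). The abundant enzymes of the other steps differed little between the pools. The log2 ratio was 0.23 for Aldoa, 0.43 for Tpi1, 0.35 for Pgk1, -0.07 for Pgam1 and -0.29 for Gpi1. By block, Pgk1 was at 160.1 CPM in the first LT-HSC block and 314 in the second, and Pgam1 at 169.8 and 347, which lay below and above the CMP levels of 206 and 300.3. Gapdh stood at 1850 CPM in the LT-HSC and 1846 in the CMP, with a log2 ratio of 0.00, though its 3′ end matches 90 other loci. The first LT-HSC block lay below the CMP in Gapdh, at 1548 CPM, and the second above, at 2008. By the mean of the cells' CPM, Gapdh was at 1618 in the LT-HSC and 1884 in the CMP. Eno1 was listed at 0 in all 58 cells, and its 3′ end matches 4 other loci. Of the 3 enzymes higher in the LT-HSC, Eno2 had 97.8% of its LT-HSC counts in LT-HSC 12 (log2 ratio 2.56, and -2.33 without that cell), Ldhd 90% in LT-HSC 6, and Aldoc had 33.4 CPM in the first LT-HSC block and 0.46 in the second. Aldoc held 3 counts over all CMP, and its log2 ratio was 4.58 with all cells and 5.71 without CMP 19.

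Among the regulators, Txnip, which restrains glucose uptake, had at least 10 counts in 30 of 34 LT-HSC and 9 of 24 CMP. It stood at 421 CPM in the LT-HSC and 56.4 CPM in the CMP, for a log2 ratio of 2.90 (interval 2.75 to 3.05), with 733 CPM in the first LT-HSC block and 257 in the second. Bpgm, which diverts an intermediate to 2,3-bisphosphoglycerate, was at 63.2 and 17.7 CPM, for a log2 ratio of 1.83 that was 2.79 without CMP 4. Of the bifunctional enzymes that set fructose 2,6-bisphosphate, Pfkfb1, Pfkfb3 and Pfkfb4 were the 3 regulators at least 2-fold higher in the CMP, each under 8 CPM, with 1 LT-HSC count of Pfkfb3 and 0 of Pfkfb1. All 21 Pfkfb1 counts came from CMP 23, and CMP 10 held 84.0% of the CMP counts of Pfkfb4. Pfkfb4 was at 4.40 CPM in the first LT-HSC block and 0.31 in the second, above and below the 3.54 CPM of the CMP. In pyruvate entry, 0 of 11 other genes were at least 2-fold higher in the LT-HSC and 2 in the CMP, Dld (31 against 63.9 CPM) and Pdk2 (2.72 against 7.65 CPM). Without CMP 24 the log2 ratio of Dld was -0.69 in place of -1.04, and without LT-HSC 24 that of Pdk2 was -2.17 in place of -1.48. Of 6 other transporters 3 were higher in the LT-HSC (Slc2a2, Slc2a8 and Slc16a7) and 1 in the CMP (Slc2a9), all under 20 CPM, and Slc2a2 and Slc2a9 rested on 1 cell each for 96.9% and 85.4% of the counts of the higher gate. Without CMP 24 the log2 ratio of Slc2a8 was 3.73 in place of 1.67, and without CMP 15 that of Slc16a7 was 3.41 in place of 1.53. Slc16a7 had counts in only 2 LT-HSC, with 60.5% of them in LT-HSC 12. It was at 11.1 CPM in the first LT-HSC block and 0 in the second, above and below the 1.27 CPM of the CMP.

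**Figure D5:**
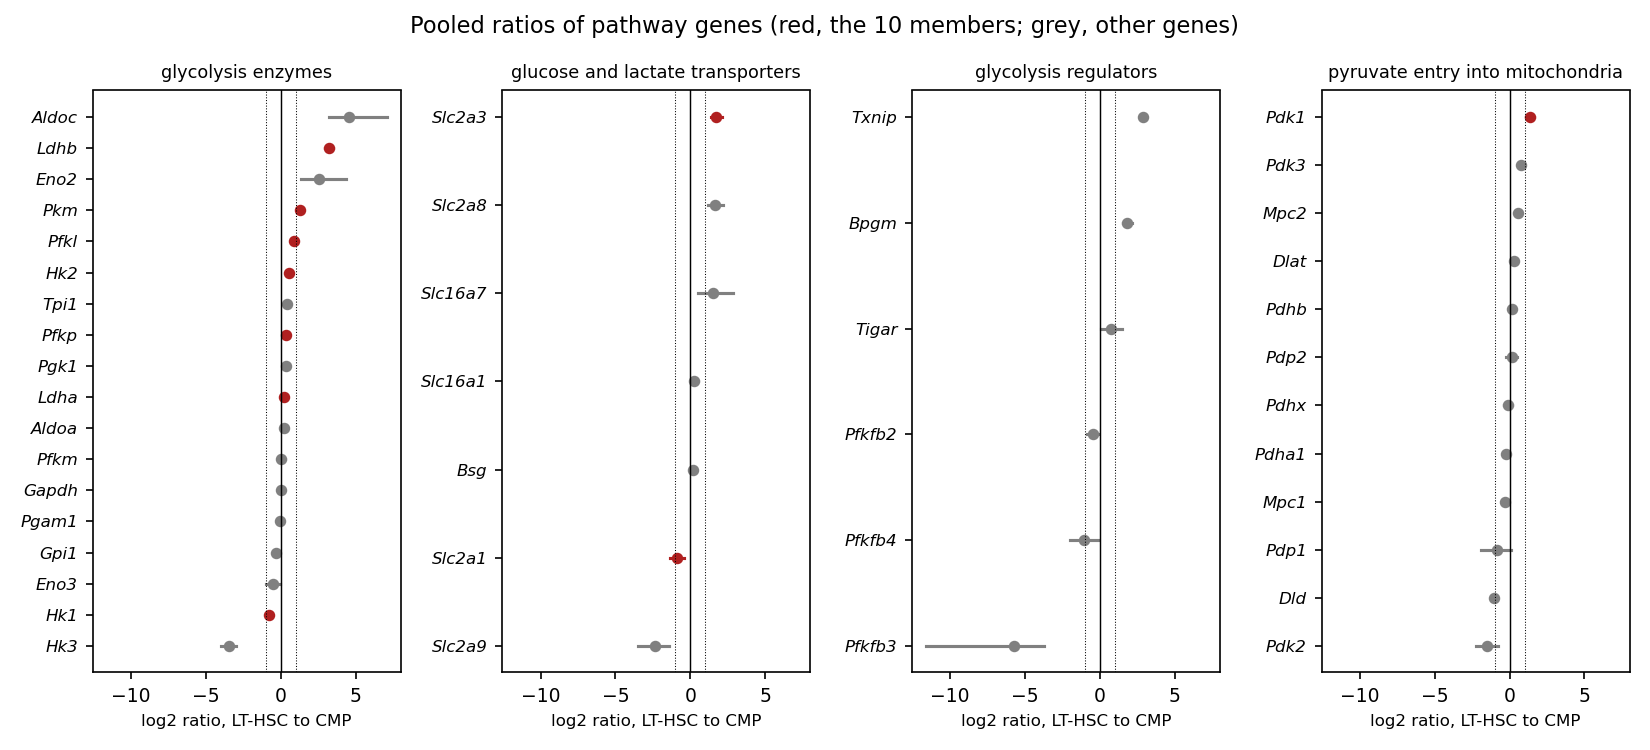
Log2 ratio of LT-HSC to CMP in pooled CPM for genes with at least 20 counts over both gates, by list, with 95% counting intervals (lines), dotted lines at a 2-fold difference, and the 10 genes of this account in red. Genes with 0 counts in a gate (Ldhd, Slc2a2 and Pfkfb1) are not drawn. Ldhb and Pkm lie right of the dotted line, and most grey points lie between the dotted lines.

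Across cells, the 10 genes showed no shared relation to the share of counts in 37 genes of S, G2 and M phase, which was 0.08% in the median LT-HSC and 0.44% in the median CMP. Within CMP, Ldha had a Spearman rho of 0.46 with that share (n = 24) and of -0.51 with the cell's total counts. Within LT-HSC, Pkm had a rho of 0.39 with the share (n = 34) and of 0.41 with the total, and its rho with the share was 0.14 in the first block and 0.29 in the second. Pdk1 had a rho of 0.39 with the share in the LT-HSC (0.31 and 0.06 in the blocks) but a count in only 10 of the cells, and Hk2 of -0.34 (-0.50 and -0.06). Slc2a1 had a rho of 0.66 in the CMP but was counted in only 9 of the 24 cells. Both measures of a cell share its total, which ran from 45022 to 860553 counts, so these values are descriptions. The genes whose CPM over cells was most like that of Pkm, by the mean of the Spearman rho within each gate among 4838 genes, were Mif (0.51), Gapdh (0.50) and Mettl9 (0.47). For Ldhb they were Guca1a (0.50), Utrn (0.47) and Hp (0.47), and for Ldha Ddx10 (0.52), Rchy1 (0.52) and Rpp21 (0.49). For Hk1 and Hk2 the most alike were Acly (0.49) and Tm9sf3 (0.48), for Pfkl and Pfkp Ppif (0.59) and Nceh1 (0.52), and for Slc2a3 and Pdk1 Nop14 (0.45) and Tmem258 (0.52). Slc2a1 was counted in 18 cells, too few for this measure. The values given are the top ones among 4838 genes over 34 and 24 cells. Whether they exceed the top values that unrelated genes would give was not tested.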

How the data were processed

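Libraries of singly sorted cells followed a version of Smart-seq2 in which the oligo(dT) primer carries a barcode and a molecular identifier and only 3′ ends are kept, per the labels' protocols. Per the submitters' processing notes, mm10, HTSeq, TopHat2 2.0.12 and Seurat 2.0 were used, in roles they do not state. The authors deposited whole-number counts per gene symbol and cell. Whether they are molecules or reads, and whether counting used strand, is not given in the sources used here. The table names cells and holds no barcodes. All 58 cells were used, with no filter and no doublet caller.

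Counts were summed per gate and given as CPM with exact Poisson 95% intervals. Log2 ratios had 0.5 added to each count and exact conditional binomial intervals, and shares had Clopper-Pearson intervals, with Newcombe intervals for their differences. In alternatives, a pool at 0 was set to 3 counts. For the common depth each cell was thinned to 97978 counts (30 LT-HSC and 22 CMP kept, 6 cells left out). Python 3.11.15 with numpy 2.4.6, pandas 2.3.3, scipy 1.17.1 and matplotlib 3.10.9 was used. Gene positions and transcript lengths (the longest coding transcript) come from GENCODE M21 on mm10, and 3′ ends were compared over 500 bases at 95% identity or more. Since the libraries hold 3′ ends, counts need not scale with length, and both kinds of share are given. The genes, lists, blocks and alternatives were chosen with earlier results of these data known. Named were the 10 genes, members of the fixed pathway lists with at least 20 counts, and, by rule, the genes most alike over cells. Hkdc1, Ldhc, Pklr, Pdk4, Eno1, single cells and genes under 20 counts were named after their values were seen. Some members of the lists are not reported here.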

Additional observations from a re-analysis of the deposited data

How the results depend on the processing

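The directions of Ldhb, Pkm, Hk1 and Pfkl were the same in all 12 alternatives each. For the log2 ratios, Ldha turned to -0.013 when the cells' CPM were averaged and to -0.040 when thinned. With LT-HSC 1 to 16 only, Slc2a1 turned to 0.50, Slc2a3 to -0.29 and Pdk1 to -0.35. With LT-HSC 17 to 34 only, Hk2 turned to -0.29 and Pfkp to -0.24. Leaving out each cell in turn gave Hk2 -0.0095 (without LT-HSC 10) to 0.75. Among cells that lacked Xist counts, where CMP 1 and 2 held 0 Slc2a1 counts and were set to 3, Slc2a1 turned to 1.68. The share of cells with a Pdk1 count turned to 6.86 percentage points with a minimum of 10. The cause was not tested.

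Pair shares are differences of LT-HSC minus CMP in percentage points, in the order Ldha, Hk1, Pfkl and Slc2a1 unless named. As a mean over cells with at least 10 counts of the pair they were -21.7, -15.0, -8.21 and -27.3. With at least 5 counts Ldha was -21.7, Pfkl -10.8 and Slc2a1 -10.4, and with at least 20 Ldha was -20.0, Pfkl -2.14 and Slc2a1 -53.3. Thinned they were -13.3, -25.4, -3.44 and -24.2. Per transcript length Ldha was -14.5. With LT-HSC 1 to 16 only they were -17.2, -32.2, -5.22 and 13, and with LT-HSC 17 to 34 only -7.77, -7.57, 20.6 and -53.4. With the cells without an Xist count they were -12.6, -10.2, 51.7 and 17.1. There the CMP side was CMP 1 and 2 only. These held 61 counts of Pfkl and Pfkp, 58 of them in CMP 1, and 4 counts of Slc2a1 and Slc2a3, so the last 2 values rest on few counts. Leaving out each cell in turn gave Ldha -12.2 to -9.55, Hk1 -26.0 to -9.88, Pfkl 0.99 to 16.7 and Slc2a1 -44.6 to -25.9. The Pfkl share thus had no stable direction.

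Of the other pathway genes, 8 at least 2-fold higher in the LT-HSC became 4 with a minimum of 100 counts, which tests fewer genes. The 7 higher in the CMP became 13 with no minimum, 2 with a minimum of 100 and 11 with LT-HSC 17 to 34 only. No paired analysis was possible because each sample is 1 cell and a cell's number ties no LT-HSC to a CMP. A single cell could set the pooled direction, as LT-HSC 10 did for Hk2 at 62.9 CPM.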

Other observations

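The pentose phosphate pathway branches from glycolysis after hexokinase and makes NADPH and ribose. Of its 7 genes, 0 were at least 2-fold higher in the LT-HSC, 1 (14.3%) was higher in the CMP and 6 lay between, beside 22.7% and 28.1% of all genes, and the median log2 ratio was -0.25. The 1 gene was Rpia, which makes ribose 5-phosphate. It held 10 counts over 34 LT-HSC (1.01 CPM) and 370 over 24 CMP (52.4 CPM), for a log2 ratio of -5.63 (interval -6.77 to -4.81), and reached 10 counts in 0 LT-HSC and 7 CMP. Its level was low in both LT-HSC blocks, at 2.05 CPM in cells 1 to 16 and 0.46 in cells 17 to 34. Pgd, an NADPH-making dehydrogenase, was at 44.1 and 85.1 CPM.

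Of the hypoxia response genes outside glycolysis, 18 had at least 20 counts over both gates. Of these 18, 2 (11.1%, beside 22.7% of all genes) were at least 2-fold higher in the LT-HSC and 3 (16.7%, beside 28.1%) in the CMP. The other 13 lay between, and the median log2 ratio was 0.03. Bnip3, a mitophagy receptor, was at 52.6 CPM in the LT-HSC and 14.2 in the CMP, with at least 10 counts in 9 and 3 cells, and its log2 ratio of 1.89 was 2.64 without CMP 12. Vegfa was at 15.7 and 7.22 CPM, and its log2 ratio of 1.11 was 0.42 without LT-HSC 18. Egln2, an oxygen-sensing prolyl hydroxylase, was at 16.5 and 59.0 CPM, a log2 ratio of -1.84 that was -3.10 without LT-HSC 24, with 3.52 CPM in the first LT-HSC block and 23.3 in the second. Egln3 was at 0 and 7.65, where CMP 3 held 85.2% of the counts, and Ddit4 at 0.20 and 8.64, where CMP 15 held 86.9%. Hif1a itself was at 37.9 and 39.5 CPM in the pools, with 19.6 CPM in the first LT-HSC block and 47.4 in the second. By the mean of the cells' CPM it was at 24.5 and 41.7, and without LT-HSC 30 its log2 ratio was -0.50 in place of -0.06.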
